A study of Mus musculus with 28 samples.

Results

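Arrays of congenic mouse striatum were compared by age, homozygous congenic 1 to 4, from mice killed at 57 days, and homozygous congenic 5 to 8, from mice killed at 52 days. They are 8 of the 28 arrays of the study and were chosen by their labels alone. Both groups hold 2 females and 2 males, were run in batch 2 and carry the same genotype, homozygous for A/J alleles across 84 to 96 Mb of chromosome 11 on a C57BL/6J (B6) background. The other arrays are B6 controls aged 63 days (n = 4) and 61 days (n = 4) in batch 2, and heterozygous congenics and their B6 littermates (n = 6 each, 41 to 68 days) in batch 1. All mice were drug-naive and housed with littermates of their sex, and left and right striatal punches of each mouse were pooled for RNA. The values are log2 signals of Affymetrix gene arrays, 1 transcript cluster a gene for 19946 genes. Age in days was, beside the sample number, the only labelled difference between the 57-day and 52-day groups. The labels give no litter, hour of death or dissection order, and the sample numbers run with age, so age cannot be told apart from these. Nor do they say that the mice of a group are unrelated, so the p-values measure the spread between these arrays. In a bulk punch, fewer cells of a type and less RNA per cell cannot be told apart either.

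The striatum is the input station of the basal ganglia, and most of its neurons are spiny projection neurons that answer dopamine and cortical glutamate. In these cells, as in other neurons, synaptic activity switches on immediate early genes within minutes through factors such as CREB and SRF, with no new protein needed. Their products include transcription factors (the Fos, Egr and Nr4a families), phosphatases that damp MAP kinases and the synaptic protein Arc. Striatal cells also run a circadian clock, in which Arntl and Clock drive the Per and Cry genes that later block them.

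No gene of the 19946 differed between 57-day and 52-day congenics at a Benjamini-Hochberg adjusted p under 0.05 by limma (percent called 0). The smallest adjusted p was 0.852, for Nr4a3 and Nr4a1, and 483 genes had an unadjusted p under 0.05, fewer than the 997.3 that 5% of all genes would make. Of these, 236 were higher (1.18% of the genes tested) and 247 were lower (1.24%) at 57 days. That count ran from 295 without homozygous 6 to 1329 without homozygous 3, and was 307 without homozygous 2, 761 without homozygous 7 and 1074 without homozygous 4. The median difference over all genes was -0.003 and the median size of a difference 0.04 on the log2 scale, against a median SE of 0.06. All 4 arrays at 57 days lay above all 4 at 52 days for 183 genes (0.917%) and below them for 175 genes (0.877%). Differences named in the text are therefore measurements that did not pass the adjusted threshold, unless it is said that they did.

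**Figure D1:**
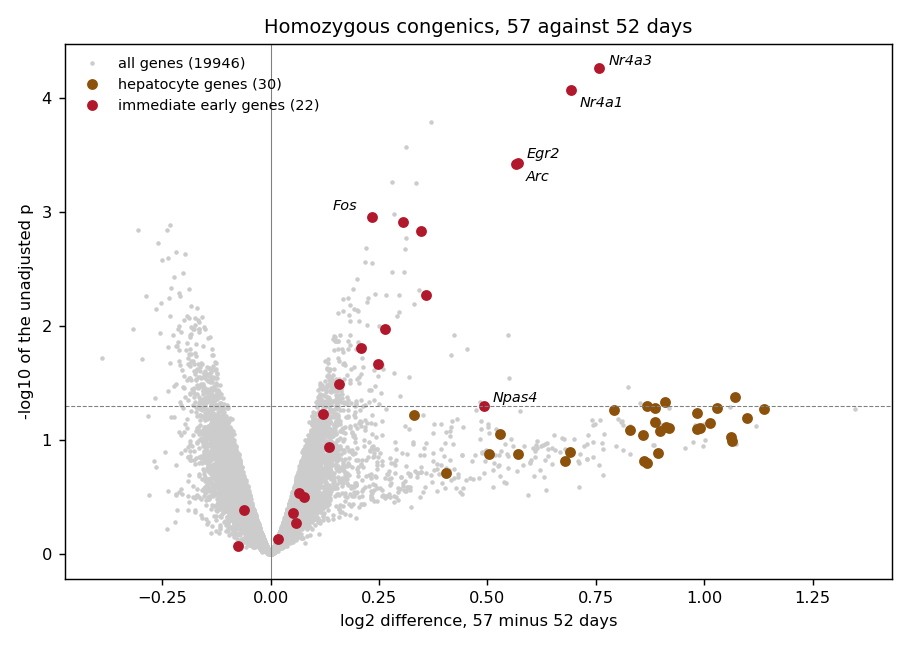
Log2 difference (57 minus 52 days, x axis) against -log10 of the unadjusted p (y axis) for 19946 genes in homozygous congenic striatum, with a dashed line at p of 0.05. Of the 22 immediate early genes (red) 20 lie right of 0 and 13 of those above the line, led by Nr4a3 at 0.76 and Nr4a1 at 0.69, while the 30 hepatocyte genes (brown) all lie right of 0 but only 2 of them lie above the line.

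Of the 10 genes with the smallest p-values in the higher direction at 57 days, 5 were immediate early genes: Nr4a3, Nr4a1, Egr2, Arc and Fos. Of a list of 22 such genes, all measured, 20 were higher at 57 days and 13 of them (59.1%) had an unadjusted p under 0.05, where 1.18% of all genes did in that direction. None was lower at that level. The median difference over the list was 0.22 on the log2 scale, with a range of -0.08 to 0.76, against a median of -0.003 over all genes. In 8 of the 22 genes every 57-day array lay above every 52-day array, against 0.917% of all genes.

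Promoters of 4 of these genes are shown because cyclic AMP response elements, the sites that CREB binds, have been mapped in immediate early gene promoters. Each runs from 250 bases before to 50 bases after a transcript start (RefSeq, GRCm38.p6), and capitals mark the CRE half-site TGACG on either strand, which reads CGTCA on the strand printed where it lies on the other one. Nr4a3 and Nr4a1, the leading 2 genes, come first, and then Fos and Dusp1.
Nr4a3 (chr4:48045055-48045354, plus strand): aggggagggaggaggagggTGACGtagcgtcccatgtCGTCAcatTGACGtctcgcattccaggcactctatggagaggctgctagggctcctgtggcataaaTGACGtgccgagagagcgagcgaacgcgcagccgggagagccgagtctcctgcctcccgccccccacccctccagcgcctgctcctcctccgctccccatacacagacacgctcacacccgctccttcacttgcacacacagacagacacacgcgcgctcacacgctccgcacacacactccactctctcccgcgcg
Nr4a1 (chr15:101266596-101266895, plus strand): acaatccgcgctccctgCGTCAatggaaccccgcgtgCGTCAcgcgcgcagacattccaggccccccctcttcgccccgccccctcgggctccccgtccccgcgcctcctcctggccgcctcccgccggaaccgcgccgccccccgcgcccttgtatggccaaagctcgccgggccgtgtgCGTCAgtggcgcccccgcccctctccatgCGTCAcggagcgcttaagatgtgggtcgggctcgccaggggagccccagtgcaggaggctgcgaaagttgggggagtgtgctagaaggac
Fos (chr12:85473640-85473939, plus strand): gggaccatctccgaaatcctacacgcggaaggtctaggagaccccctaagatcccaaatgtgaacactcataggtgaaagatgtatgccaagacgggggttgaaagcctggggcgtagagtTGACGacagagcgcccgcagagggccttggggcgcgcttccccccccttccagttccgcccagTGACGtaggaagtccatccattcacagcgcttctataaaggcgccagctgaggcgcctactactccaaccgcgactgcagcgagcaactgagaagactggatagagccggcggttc
Dusp1 (chr17:26508423-26508722, minus strand): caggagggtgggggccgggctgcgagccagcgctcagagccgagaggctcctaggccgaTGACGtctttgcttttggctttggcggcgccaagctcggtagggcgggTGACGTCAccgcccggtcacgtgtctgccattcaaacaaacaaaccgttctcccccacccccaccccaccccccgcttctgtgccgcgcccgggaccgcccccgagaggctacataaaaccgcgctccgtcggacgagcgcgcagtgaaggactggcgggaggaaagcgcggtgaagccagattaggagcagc
The Nr4a3 and Nr4a1 windows each hold 4 half-sites, the Fos window 2 and the Dusp1 window 3. Both half-sites of the palindrome TGACGTCA are counted, and Dusp1 holds that palindrome. RefSeq windows were used for 17 of the 22 genes, which have 28 windows between them, some overlapping; none were used for Arc, Egr1, Egr3, Ier2 and Sik1. The half-site was present in 17 of the 28 (60.7%), against 6837 of all 32851 windows (20.8%), and 4 or more were present in 10.7% against 0.231%. The full palindrome was present in 2 of the 28 (7.14%), against 1.79% of all windows. The CArG box, the site that SRF binds, was present in 5 of the 28 (17.9%), against 1.63%. Those 5 were windows of Egr2 and Dusp5 only, and the Egr2 windows starting at 67537619, 67537620 and 67537680 overlap for most of their length. Nr4a2 is the other gene of the list with 4 half-sites in its window, and its expression difference was -0.08. A match of letters is no evidence that a factor was bound there in these mice.

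The Nr4a genes encode orphan nuclear receptors that are induced by neuronal activity and by dopamine signals. Nr4a3 (chromosome 4) measured 8.31, 8.81, 8.31 and 8.15 in the 57-day arrays, against 7.71, 7.63, 7.57 and 7.63 in the 52-day arrays. The groups did not overlap, and the 52-day arrays lay close together. The difference was 0.76 with an SE of 0.11, a fold of 1.69 (95% confidence interval 1.43 to 2.00), with an unadjusted p of 5.48e-05 and an adjusted p of 0.852 by limma. Nr4a1 (chromosome 15) measured 10.14, 10.30, 9.65 and 9.81 in the 57-day arrays, against 9.20, 9.33, 9.29 and 9.30 in the 52-day arrays. Its groups were also apart, by 0.69 with an SE of 0.10 and a fold of 1.62 (1.37 to 1.90). Nr4a2, which marks dopamine neurons and some cortical neurons as well as responding to activity, measured 10.23, 9.71, 9.77 and 8.89 at 57 days, against 8.79, 9.67, 10.32 and 10.13 at 52 days. Its arrays spread over more than a log2 unit within each group, so that gene could not be compared at this precision.

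The Egr genes encode zinc-finger factors, and Arc a protein of dendrites and synapses that governs AMPA receptor removal. Egr2 (chromosome 10) measured 8.25, 8.32, 7.96 and 7.81 in the 57-day arrays, against 7.36, 7.56, 7.51 and 7.62 in the 52-day arrays, a difference of 0.57 (SE 0.10). Arc (chromosome 15) measured 9.72, 10.04, 9.55 and 9.68 at 57 days, against 9.06, 9.34, 9.01 and 9.30 at 52 days, also a difference of 0.57 (SE 0.10). In both genes the lowest 57-day array stood above the highest 52-day array. Egr1, the most used activity marker of the family, measured 10.68, 10.77, 10.64 and 10.67 at 57 days, against 10.25, 10.60, 10.20 and 10.30 at 52 days. Egr4 measured 8.43, 8.69, 8.50 and 8.40 at 57 days, against 8.18, 8.22, 8.20 and 8.21 at 52 days. These 2 genes differed by 0.35 (SE 0.08) and 0.30 (SE 0.07) with no overlap, whereas Egr3 differed by 0.07 and overlapped.

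Fos, the founding member of the AP-1 transcription factors, measured 7.34, 7.32, 7.22 and 7.22 in the 57-day arrays, against 7.17, 7.15, 6.88 and 6.98 in the 52-day arrays. The groups did not overlap and the difference was 0.23 (SE 0.05). Its partners and relatives overlapped between the ages: Fosl2 was 0.26 higher (SE 0.08), Fosb 0.25 (SE 0.09) and Junb 0.21 (SE 0.07), each with an unadjusted p under 0.05, while Jun differed by 0.05 (SE 0.06). Dusp1, a phosphatase that switches off MAP kinases, measured 9.66, 9.82, 9.53 and 9.56 at 57 days, against 9.14, 9.23, 9.23 and 9.54 at 52 days. One 52-day array, homozygous 8, lay inside the 57-day range of that gene, and the difference was 0.36 (SE 0.10). Npas4, a factor induced by calcium entry and specific to neurons, measured 8.57, 8.66, 8.03 and 8.48 at 57 days, against 7.57, 8.14, 7.57 and 8.49 at 52 days. Its difference of 0.49 had an SE of 0.22. The zinc-finger factor Klf4 was the last of the 8 genes without overlap, 0.16 higher (SE 0.06). Its signal was low, at 6.53 to 6.89, against array medians of 7.49 to 7.53. Among genes with a mean log2 of at least 7, 11 immediate early genes were higher at an unadjusted p under 0.05. Bdnf, a growth factor with a slower activity-dependent transcript, differed by -0.06 (SE 0.07), and Homer1, whose short form alone is an early transcript, by 0.02 (SE 0.05).

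**Figure D2:**
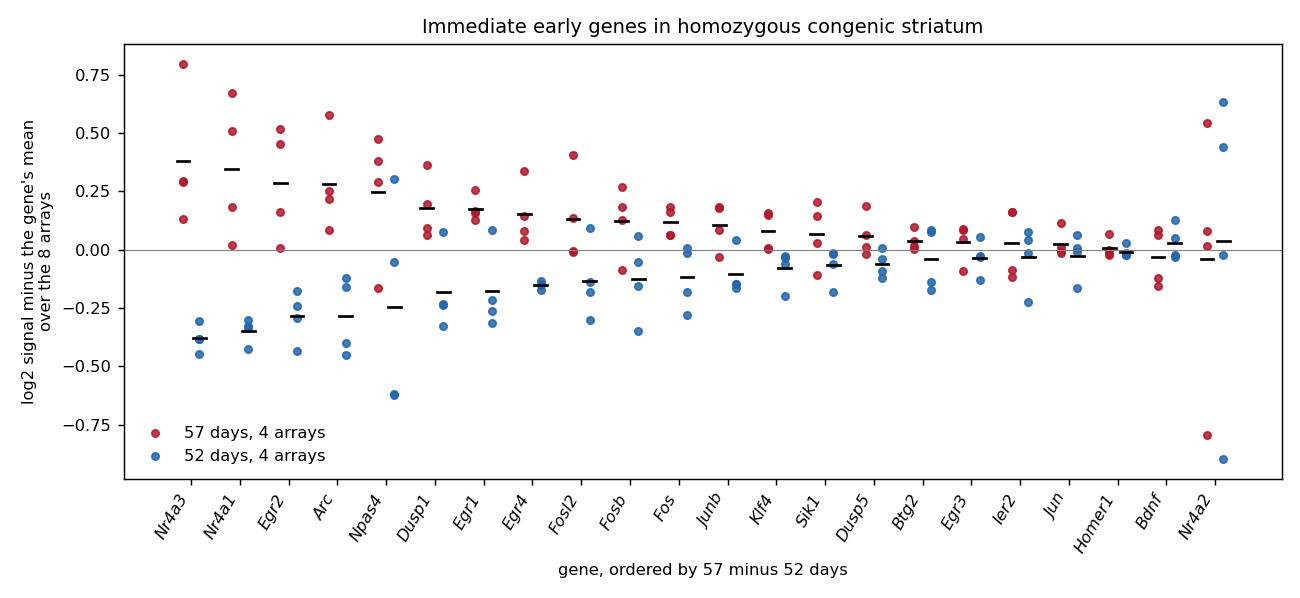
Log2 signal of each immediate early gene in each homozygous array, minus the gene's mean over the 8 arrays, with 57-day arrays (red) left of 52-day arrays (blue) and a bar at each group's mean. Genes are ordered by their difference; the leading 4, Nr4a3, Nr4a1, Egr2 and Arc, show no overlap, and Nr4a2 spreads widely in both groups.

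The mean of the 22 genes was 8.58, 8.70, 8.52 and 8.44 in the 57-day arrays, against 8.22, 8.37, 8.27 and 8.36 in the 52-day arrays. B6 controls ranged from 8.45 to 8.75 at 63 days and from 8.34 to 8.73 at 61 days, heterozygous congenics from 8.21 to 8.74 and their B6 littermates from 8.29 to 8.71. The 57-day range of 8.44 to 8.70 lay inside the range of the 63-day B6 controls but for homozygous 4. All 4 of the 63-day B6 controls lay above the 52-day range of 8.22 to 8.37, whereas the lowest arrays of the 61-day B6 controls, the heterozygous congenics and their littermates were as low as the 52-day ones. Levels of batch 1 and batch 2 were made comparable by the authors' batch adjustment, so the order across batches rests on it.

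**Figure D3:**
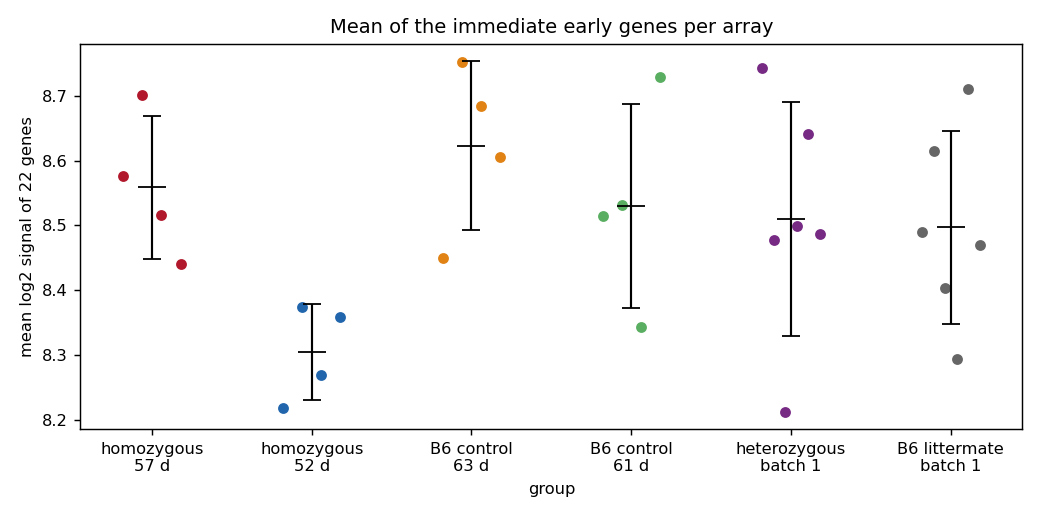
Mean log2 signal of 22 immediate early genes per array (points) in the 6 groups, with the group mean and SD (black). The 4 homozygous arrays at 52 days sit between 8.22 and 8.37, below the 4 at 57 days (8.44 to 8.70) and below all 4 B6 controls at 63 days (8.45 to 8.75).

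B6 controls give the other age comparison within batch 2, 63 against 61 days, from mice that were not littermates of the congenics. None of the 19946 genes passed the adjusted threshold there (smallest adjusted p 0.249, limma), with 1613 genes higher (8.09%) and 1840 lower (9.22%) at 63 days at an unadjusted p under 0.05. Of the immediate early genes 12 of 22 were higher at 63 days, with a median of 0.03, and 4 were higher and 1 was lower at an unadjusted p under 0.05. Nr4a3 was again the first of the list, at 8.29, 8.53, 8.57 and 8.25 in the 63-day arrays, against 7.81, 7.97, 7.69 and 8.06 in the 61-day arrays, a difference of 0.53 (SE 0.12). Fosl2 (0.34), Fosb (0.28) and Klf4 (0.18) were the others higher, and Jun was lower by 0.22. Without B6 control 1, the array with the most liver transcript, 7 of the 22 were higher and 1 lower at an unadjusted p under 0.05. Over all 19946 genes 1075 were higher and 698 lower at that level. The median of the 22 was then 0.12, and all but Fos, Jun and Btg2 lay above 0. Fos, apart by age in the congenics, was -0.02 in the B6 controls and -0.04 without B6 control 1. Arc, also apart in the congenics, was -0.01 in the B6 controls but 0.15 (SE 0.14) without that array.

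The difference between the homozygous and the B6 age differences was fitted over the 16 arrays of batch 2. No gene passed (smallest adjusted p 0.679, limma), and 989 had an unadjusted p under 0.05. Of the immediate early genes 4 did so, all with the congenic value above the B6 value: Arc by 0.58 (SE 0.23), Dusp1 by 0.45 (SE 0.18), Jun by 0.28 (SE 0.10) and Fos by 0.25 (SE 0.10). Over all genes 2.02% did so in that direction. Jun differed by 0.05 in the congenics and by -0.22 in the B6 controls, so its larger age difference was the lower value in the older B6 mice. Without B6 control 1 the values were 0.41 for Arc, 0.34 for Dusp1 (unadjusted p 0.0619, limma), 0.22 for Jun and 0.28 for Fos. For Nr4a3 the 2 age differences themselves differed by 0.23 (SE 0.17). The 12 mice of batch 1, aged 41 to 68 days, gave a slope on age. The 2 mice aged 41 days weigh heavily in it, as all others but heterozygous 5 (52 days) were 66 or 68 days old. Slope counts of lists, here and below, were not repeated without those 2 mice. A single gene passed in the slope fit of all 12 mice, Abca8a, a lipid transporter, which rose by 0.03 log2 units a day (SE 0.004, adjusted p 0.0419, limma). That call was lost without the 2 mice aged 41 days. Of the immediate early genes 14 of 22 had a positive slope and 1, Fosb, an unadjusted p under 0.05, where 2.11% of all genes did in that direction.

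Leading genes outside the list were also higher at 57 days. Tiparp, an ADP-ribosyltransferase induced by the aryl hydrocarbon receptor, measured 9.03, 9.02, 8.75 and 8.87 in the 57-day arrays, against 8.65, 8.49, 8.53 and 8.52 in the 52-day arrays, a difference of 0.37 (SE 0.06). Slc25a25, a calcium-regulated mitochondrial ATP carrier, measured 8.41, 8.34, 8.30 and 8.21 at 57 days, against 7.99, 8.00, 8.07 and 7.96 at 52 days (0.31, SE 0.05). Both were apart by age. Sik2, a salt-inducible kinase that restrains CREB coactivators, differed by 0.28 (SE 0.05) and Peli1, a ubiquitin ligase of innate immune signalling, by 0.28 (SE 0.06), again with no overlap. The remaining gene of the 10, the 5S ribosomal RNA gene n-R5s136, differed by 0.34 and overlapped. A further 5 genes outside the list were higher by more than 0.3 with no overlap and are named after their values were seen: the vault RNA gene Vaultrc5 (0.45), Rgs2, which shortens Gq signals (0.34), Raet1d, a ligand of natural killer cell receptors (0.31), Dusp14, a MAP kinase phosphatase (0.31), and Midn (0.31). Raet1d, at 4.87 to 5.39, measured near the bottom of the scale. Tiparp was one of the genes with the larger age difference in congenics than in B6 controls, by 0.41 (SE 0.12, unadjusted p 0.00479, limma).

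Whether the leading genes follow the immediate early genes was examined in the 20 arrays that were not used to pick them. The mean of the 22 genes was set against each of the 15 leading genes outside the list, 15 relations in all. Tiparp correlated with it at Pearson r = 0.653 and Spearman rho = 0.665 (permutation test, adjusted p 0.028 for each), at 0.654 within batch 1 and 0.698 within the B6 controls, and at 0.757 without the 2 arrays farthest from the median. Sik2 followed at r = 0.609 (adjusted p 0.034) and rho = 0.587 (adjusted p 0.04), with 0.703 within batch 1, 0.608 within the B6 controls and 0.598 without the 2 farthest arrays. Slc25a25 had r = 0.550 (adjusted p 0.055) and rho = 0.606 (adjusted p 0.04) by the permutation test, but r = 0.872 within batch 1, 0.090 within the B6 controls and 0.540 without the 2 farthest arrays. Peli1 had r = 0.537 (adjusted p 0.056) and rho = 0.526 (adjusted p 0.071) by the same test, with 0.488 within batch 1 and 0.700 within the B6 controls. None of the 10 lower genes passed, and n-R5s136 had r = -0.150. The permutations shuffled all 20 arrays freely across groups and batches. Their p-values therefore treat the arrays as interchangeable, although batch 1 holds littermates.

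The 10 genes with the smallest p-values in the lower direction formed no such family. They were Il1f8, 1700123L14Rik, Gm8773, Olfr316, Zc3h6, Rasgef1b, Mir362, Gm14410, Gm13274 and Olfr479, with differences of -0.31 to -0.20. Several of them measure near the bottom of the scale: Il1f8, a cytokine of the interleukin 1 family, was 4.41, 4.36, 4.31 and 4.42 in the 57-day arrays, against 4.64, 4.59, 4.66 and 4.54 in the 52-day arrays. Zc3h6 and Rasgef1b are the well-expressed members. Rasgef1b, an exchange factor for a Rap GTPase, measured 9.72, 9.68, 9.84 and 9.79 at 57 days, against 9.86, 9.84, 10.02 and 10.08 at 52 days (-0.20, SE 0.05). It was lower in the B6 comparison too, by 0.32 at 63 days, and Zc3h6 was lower by 0.22 in the congenics and by 0.28 in the B6 controls. Olfactory receptor genes, which the striatum is not known to use, were higher in 349 of 1015 (34.4%, against 47.4% of all genes) with a median of -0.03. At an unadjusted p under 0.05, 7 were higher (0.69%, against 1.18% of all genes) and 36 lower (3.55%, against 1.24%).

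Clock genes differed in both directions. Of 19 measured clock and clock-output genes, 3 were higher and 3 lower at 57 days at an unadjusted p under 0.05, against 1.18% and 1.24% of all genes. Arntl, which encodes the activator BMAL1, measured 8.82, 8.83, 8.75 and 8.73 in the 57-day arrays, against 8.58, 8.72, 8.59 and 8.57 in the 52-day arrays, a difference of 0.17 (SE 0.05). Nfil3, a repressor in antiphase to the D-box activators, measured 7.21, 7.04, 7.17 and 7.07 at 57 days, against 6.93, 6.94, 6.93 and 6.96 at 52 days (0.18, SE 0.05). Both were apart by age. In tissues with a running clock Arntl is known to peak opposite to the Per genes, and Nfil3 opposite to Dbp.

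Per3, a period gene driven by BMAL1, went the other way. It measured 8.91, 8.99, 9.14 and 9.05 in the 57-day arrays, against 9.18, 9.16, 9.21 and 9.21 in the 52-day arrays, a difference of -0.17 (SE 0.05). Usp2, a clock-driven deubiquitinase, was lower by 0.12 (SE 0.05) with no overlap, and Ciart, a repressor of the clock, was lower by 0.32 (SE 0.10) with overlap. Usp2 and Ciart are named after their values were seen. Per1 was higher, at 9.84, 9.75, 9.62 and 9.63 at 57 days, against 9.38, 9.34, 9.47 and 9.58 at 52 days (0.27, SE 0.07). Per1 is also known as an immediate early gene of CREB, and why it differed from Per3 here was not tested. Per2 differed by 0.03 (SE 0.05), Cry1 by 0.05 (SE 0.07), Nr1d1 by 0.04 (SE 0.04) and Nr1d2 by -0.06 (SE 0.05), all with overlap. Dbp, a strongly rhythmic D-box activator, differed by -0.08 (SE 0.08).

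The same 6 genes can be set beside the B6 controls, which share no array with the congenics although their SE uses the spread of all 16. In the B6 controls 63 minus 61 days was 0.19 for Arntl (SE 0.07), 0.25 for Nfil3 (SE 0.10), -0.30 for Per3 (SE 0.07), -0.38 for Ciart (SE 0.11) and -0.24 for Usp2 (SE 0.07). Each had the sign it had in the congenics and an unadjusted p under 0.05. Per1 did not: it was -0.09 (SE 0.12) in the B6 controls, and its 2 differences were apart by 0.35 (SE 0.16). Over all genes, 278 of the 483 with an unadjusted p under 0.05 in the congenics (57.6%) had the same sign in the B6 controls, and 101 of them also had a p under 0.05 there, out of 3453 that did. Of the clock list 14 of 19 had the same sign in both comparisons, against 52.5% of all 19946 genes. Without B6 control 1 the B6 differences were 0.27 for Arntl, 0.12 for Nfil3 (unadjusted p 0.052, limma), -0.21 for Per3, -0.26 for Ciart and -0.16 for Usp2. Per1 turned to 0.06 (SE 0.08) without that array, the sign it had in the congenics, and its 2 differences were then apart by 0.20 (SE 0.10, unadjusted p 0.0718, limma), so its opposite sign rested on B6 control 1. On age in batch 1, 18 of the 19 clock genes had a positive slope, against 44.6% of all genes. Of these, 3 had an unadjusted p under 0.05, against 2.11% of all genes, and none was one of the 6. Ciart and Usp2, lower in both comparisons, had positive slopes of 0.003 and 0.001 a day. The slope was 1.1e-05 for Arntl, 0.0002 for Nfil3, 0.006 for Per1 and -0.0006 for Per3.

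**Figure D4:**
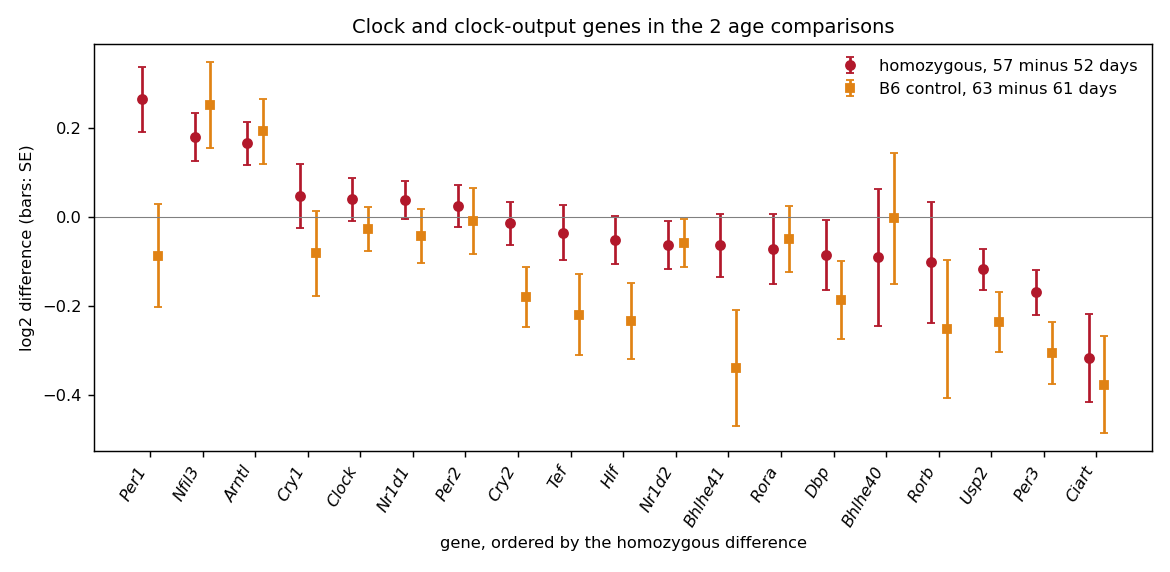
Log2 difference with its SE for 19 clock and clock-output genes, homozygous congenics at 57 minus 52 days (circles) and B6 controls at 63 minus 61 days (squares). Nfil3 and Arntl lie above 0 and Usp2, Per3 and Ciart below 0 in both comparisons, while Per1 is 0.27 in the congenics and -0.09 in the B6 controls (0.06 without B6 control 1).

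Hepatocyte transcripts were measured in these punches and varied by array. All 30 measured hepatocyte genes were higher at 57 days, with a median difference of 0.89 log2 units, but only Fabp1 and Apob had an unadjusted p under 0.05 (6.67% of the list) and the groups overlapped in all 30. The mean of the list was 9.59, 8.19, 8.81 and 8.41 in the 57-day arrays, against 7.03, 7.52, 9.26 and 7.78 in the 52-day arrays, so that homozygous 1 and 7, of different ages, were the highest. Alb, serum albumin, measured 11.17, 10.78, 10.99 and 10.93 at 57 days, against 10.19, 10.49, 11.15 and 10.72 at 52 days. Apoa1, the main protein of high-density lipoprotein, measured 11.36, 10.19, 10.85 and 10.26 at 57 days, against 8.61, 9.23, 11.21 and 9.68 at 52 days (0.98, SE 0.45). Ttr, made by liver and choroid plexus, differed by 0.77 (SE 0.45). The batch 1 groups spanned only 7.88 to 8.07, and B6 controls 7.26 to 10.94 at 63 days and 6.67 to 7.20 at 61 days. In the B6 controls all 30 had an unadjusted p under 0.05, with a median of 2.47.

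The 8 arrays differed most along an axis that ran with the liver level. The first principal component held 49.7% of their variance, with homozygous 1, 7 and 3 at one end and 5 and 6 at the other, and the order of the arrays along it was that of the hepatocyte mean but for homozygous 2 and 8. Homozygous 1, 3, 7 and 8 also had the lower means of cortical excitatory neuron genes (8.97 to 9.10, against 9.51 to 9.75 in the other 4 arrays) and the higher means of spiny neuron genes (11.67 to 11.71, against 11.38 to 11.52), and each of these sets holds 2 arrays of either age. With the hepatocyte mean as a covariate, the immediate early genes had a median of 0.22 and 12 of the 22 an unadjusted p under 0.05, and Nr4a3 was 0.81. With the cortical mean as a covariate the median was 0.22 and the count 13. Without homozygous 1 and 7 the median was 0.21 and the count 11, Nr4a3 was 0.87 with an adjusted p of 0.0409 (limma), and 3 clock genes had an unadjusted p under 0.05. In that setting 32 genes passed the adjusted threshold. Nr4a3 was the only immediate early gene among them. Most of the others were transcripts that liver makes, including Ambp, Apob, Fgb and Tdo2 of the hepatocyte list, and Ttr. The hepatocyte means of the arrays that stayed were 8.19 to 8.81 at 57 days, against 7.03 to 7.78 at 52 days. The arrays left out were chosen by their liver level, so calls of liver genes there are not independent of the choice. Without homozygous 5 and 6, the lowest in liver transcript, the immediate early median was 0.17 with 7 genes at an unadjusted p under 0.05, and 1 clock gene.

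**Figure D5:**
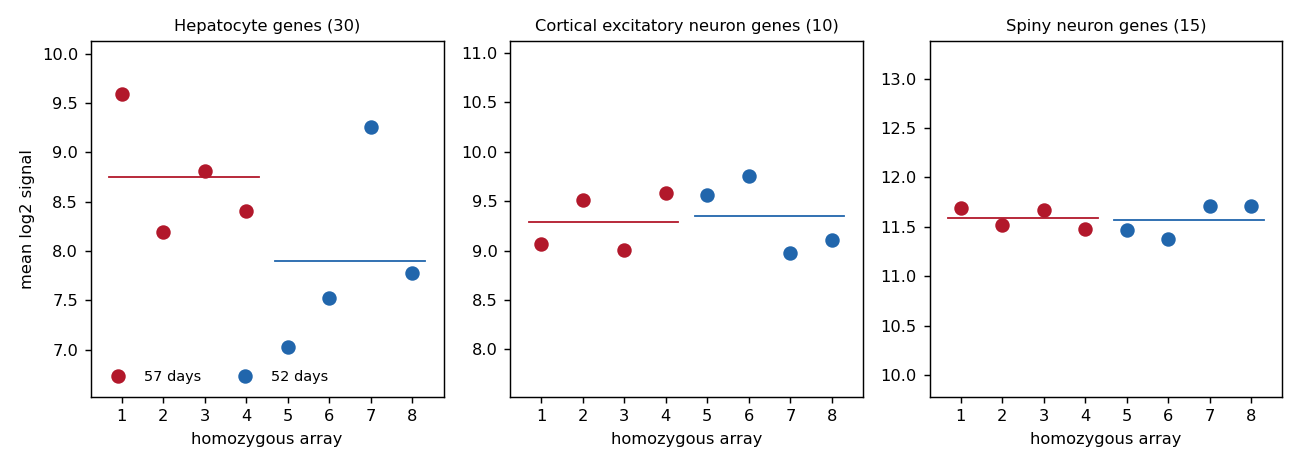
Mean log2 signal of hepatocyte (left), cortical excitatory neuron (middle) and spiny neuron genes (right) in homozygous arrays 1 to 4 (57 days, red) and 5 to 8 (52 days, blue), with a line at each group's mean; each panel spans the same number of log2 units. Hepatocyte means run from 7.03 in homozygous 5 to 9.59 in homozygous 1, and homozygous 7, a 52-day array, is at 9.26.

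The defining genes of striatal neurons differed little by age, and none of their groups came apart. Spiny neuron genes shared by both output pathways (15 measured) lay between -0.05 and 0.10 with a median of 0.02, and none had an unadjusted p under 0.05. Drd1, the dopamine receptor of the direct pathway, measured 10.80, 10.72, 10.85 and 10.62 at 57 days, against 10.43, 10.48, 10.87 and 10.83 at 52 days (0.09, SE 0.09). Pdyn, the direct-pathway opioid peptide, differed by 0.20 (SE 0.09, unadjusted p 0.0472, limma). Drd2 of the indirect pathway differed by 0.06 (SE 0.10), its peptide Penk by 0.002 (SE 0.08) and Ppp1r1b, the dopamine-regulated phosphatase inhibitor DARPP-32, by 0.02 (SE 0.11). Drd1, Drd2, Penk and Ppp1r1b lay far above the array medians of 7.49 to 7.53 (Drd1 from 10.43 to 10.87, Penk from 13.30 to 13.60), as the tissue label implies, while Pdyn lay nearer to them, at 7.92 to 8.44.

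Glia and vessels showed single genes at an unadjusted p under 0.05 rather than families. Myelin genes were higher in 12 of 13 with a median of 0.03 and none at that level, and Mbp, myelin basic protein, differed by 0.03 (SE 0.06). In the B6 controls 12 of the 13 were lower at 63 days, 2 of them at that level, against 9.22% of all genes. B6 control 1 lay far below the rest in such genes. Its Mbp was 11.69, against 12.17 to 12.40 in the other 63-day arrays and 12.23 to 12.32 at 61 days. Its Opalin was 8.15, against 8.86 to 9.28 in the other 63-day arrays. This list was not examined without B6 control 1. On age in batch 1 the slope was positive in 1 of the 13 and negative at that level in 8, against 665 of all 19946 genes. Of 12 genes of oligodendrocyte precursors and new oligodendrocytes, 6 were higher and 6 lower, with a median of -0.005. Olig2, the lineage factor of oligodendrocytes, was the only one with an unadjusted p under 0.05. It measured 8.38, 8.43, 8.45 and 8.63 at 57 days, against 8.70, 8.60, 8.58 and 8.72 at 52 days, a difference of -0.18 (SE 0.06). In the B6 controls all 12 were lower at 63 days, Olig2 by 0.19 (SE 0.08). Its lowest value there was 8.19, in B6 control 1, against 8.44 to 8.78 in the other 63-day arrays. Kdr, the endothelial VEGF receptor, was higher by 0.18 (SE 0.06) with no overlap, and Slco1a4, an organic anion carrier of brain endothelium, lower by 0.18 (SE 0.07). Mgp and Fmod, matrix proteins of meninges and fibroblasts, were lower by 0.22 (SE 0.07) and 0.15 (SE 0.05), both with no overlap. Tmem212, from the choroid plexus and ependyma list, was higher by 0.20 (SE 0.09).

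Growth and metabolic lists differed by small amounts. Cholesterol synthesis and uptake genes were higher in 19 of 20 with a median of 0.08, and none had an unadjusted p under 0.05; Cyp51, a sterol demethylase, was first at 0.14 (SE 0.07). In the B6 controls 8 of the 20 did, all higher at 63 days, with a median of 0.29, against 8.09% of all genes. B6 control 1 stood far above the other 63-day arrays in genes such as Cyp51 (9.82, against 8.60 to 9.02). Idi1 was 10.5 in that array, against 8.67 to 9.45. This list was not examined without B6 control 1. The slope on age in batch 1 went the other way. It was positive in 1 of the 20 and negative at an unadjusted p under 0.05 in 9, against 665 of all 19946 genes. Cell cycle genes were higher in 12 of 13 with a median of 0.07. Nusap1, a spindle protein, was the only one with an unadjusted p under 0.05, at 0.16 (SE 0.07), and its signal was low, at 5.67 to 6.03. Neuronal maturation genes were lower in 12 of 13 with a median of -0.04 and none at that level. Glucocorticoid-responsive genes, which rise with stress, had a median of -0.01 and none at that level, and Sgk1, a kinase of that list, differed by 0.12 (SE 0.12).

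Genes of the segment itself are A/J in both groups. Tob1, an antiproliferative gene there, differed by 0.12 (SE 0.05, unadjusted p 0.0479, limma), and Cuedc1 by -0.04 (SE 0.06). Levels of the sex markers followed the labels in all 28 arrays. Xist, which females express from the inactive X, was 11.58 to 11.86 in the 4 female arrays. In the males it was 8.20 and 8.11 at 57 days, against 9.11 and 7.69 at 52 days. Eif2s3y, on the Y chromosome, was 8.84 to 9.29 in males, against 4.68 to 5.09 in females.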

How the data were processed

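Total RNA of pooled left and right striatal punches was hybridised to 1 Affymetrix array a mouse. The submitters' processing notes list RMA and Affymetrix Expression Console, whereas the authors' notes deposited with the series name Affymetrix Power Tools for RMA (versions not given in the sources used here). Per those deposited notes, probes over SNPs between the strains in the segment, other than intronic, intergenic and non-coding ones, were masked, and ComBat then adjusted the values between the study's microarray experiments. The deposited log2 values cover 35556 transcript clusters by 28 arrays. Sample groups, ages, sexes and batches came from the labels. Precision is set by the number of arrays, 4 a group.

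Of the clusters, 21797 carried 1 gene symbol in the platform annotation, 1613 several and 12146 none. For each of 19946 genes the single-symbol cluster with the highest mean over 28 arrays was kept. Limma 3.58.1 (R 4.3.3) was fitted to the 8 homozygous arrays with 2 age means and a sex term, moderated by eBayes, with two-sided p-values adjusted over all genes by Benjamini-Hochberg at 0.05. The B6 comparison and the difference of differences used the 16 arrays of batch 2, and the slope on age the 12 of batch 1 with genotype and sex. Scripts were tested on simulated data. Because title numbers 1 to 4 and 5 to 8 recur in both strains, a number block was tried as an alternative. The other alternatives were other sample sets, normalizations, filters and summaries of clusters, covariates, and leaving out arrays.

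The genes named are the 10 with the smallest p in each direction, as no gene passed, a fixed set of striatal, activity, clock, liver, segment and sex genes, and up to 4 genes by smallest p of each list, all 22 for the immediate early genes. In the fixed set Adora2a and Hba-a1 had no single-symbol cluster here, and 1 item is not reported here. Members and lists were chosen with earlier results of these data known.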

Additional observations from a re-analysis of the deposited data

Results flagged for a closer look

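In 226 groups of 4 homozygous arrays (named genes and lists, each age apart), 1 array lay far from the other 3 by Dixon's criterion in 9 (3.98%); chance alone would give about 1 in 20. In homozygous 1, at 57 days, Sgk1 was 10.08 (others 9.57 to 9.64), Gm14410 was 7.13 (6.93 to 6.95), Tmem212 was 7.12 (7.42 to 7.47) and the cell cycle mean was 6.62 (6.79 to 6.81). In homozygous 3, at 57 days, Cyp51 was 8.52 (others 8.76 to 8.80) and the mean of septal, pallidal and hypothalamic neuron genes was 7.39 (7.20 to 7.23). Among the 52-day arrays, Junb was 7.75 in homozygous 8 (others 7.54 to 7.56), Homer1 was 10.72 in homozygous 5 (10.67 to 10.68) and Arntl was 8.72 in homozygous 6 (8.57 to 8.59). With Junb, the high 52-day array is the one inside the 57-day range. With Arntl the high 52-day array still lies below every 57-day array.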

How the results depend on the processing

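The 20 leading genes and the 13 immediate early and 6 clock genes with an unadjusted p under 0.05 kept their direction in each alternative that tested them, 21 for most and 20 for those below the filter on low signals. No gene passed the adjusted threshold in the congenics except 32 without homozygous 1 and 7. Nr4a3 (0.87) was the only immediate early gene among the 32. Most of the 32 were transcripts that liver makes, such as Ttr (0.80), Apob (0.98), Cyp7a1 (0.69), Hamp (1.46) and Otc (0.57). That setting was chosen after seeing the data, as were the cortical covariate, leaving out homozygous 5 and 6 and leaving out B6 control 1. Over the alternatives the adjusted p of Nr4a3 by limma ran from 0.0409 to 1. The 483 genes at an unadjusted p under 0.05 became 301 with a mean log2 of at least 7, 1177 over all transcript clusters, 826 with the hepatocyte covariate, 313 without homozygous 5 and 6, and 295 to 1329 leaving out 1 array. Clock genes at that level numbered 3 without homozygous 1 and 7 and 1 without 5 and 6, where immediate early genes numbered 7. The 989 genes of the homozygous age difference minus the B6 age difference became 557 with the filter and 631 with the hepatocyte covariate. Leaving out 1 array gave 629 to 2764. The count was 2764 without homozygous 3, 655 without homozygous 2 and 629 without homozygous 7. It was 1635 without B6 control 2, 2304 without B6 control 4 and 641 without B6 control 7, and no gene passed in any of these. Abca8a was lost without the mice aged 41 days or without the genotype term, which left 0 genes. With the title number as a replicate block 1467 genes had an unadjusted p under 0.05 and 0 passed. Deviations of same-numbered arrays correlated at -0.17 to 0.60, and 3 of 8 arrays correlated best with their own number. The labels do not say whether same-numbered samples share anything beside the number.

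Directions turned in the genes that follow. The hepatocyte covariate gave Drd1 -0.022, Drd2 -0.073, Ppp1r1b -0.13, Penk -0.085, Sgk1 -0.0083, Ttr -0.083 and Cuedc1 0.012. Median centring gave Penk -0.011. The cortical covariate gave Ppp1r1b -0.0098 and Penk -0.020. Without homozygous 1 and 7, Drd2 was -0.019, Ppp1r1b -0.025, Penk -0.035, Mbp -0.0089 and Sgk1 -0.034. Without homozygous 5 and 6, Drd1 was -0.11, Drd2 -0.14, Ppp1r1b -0.20, Penk -0.14, Sgk1 -0.096, Bdnf 0.011 and Homer1 -0.00060. Leaving out 1 array gave -0.041 to 0.15 for Drd2, -0.078 to 0.12 for Ppp1r1b, -0.056 to 0.077 for Penk, -0.00029 to 0.064 for Mbp, -0.017 to 0.19 for Sgk1, -0.077 to 0.0044 for Cuedc1, -0.00036 to 0.084 for Jun, -0.0081 to 0.12 for Ier2, -0.0012 to 0.027 for Homer1 and -0.41 to 0.26 for Nr4a2. The causes were not tested.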

Other observations

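Lists not described above differed little between 57-day and 52-day congenics. Heat shock and chaperone genes were higher in 18 of 22 at 57 days with a median of 0.03, and none had an unadjusted p under 0.05. In the B6 controls 9 were higher at 63 days at that level, against 8.09% of all genes. Small nucleolar RNA genes were higher in 30 of 51, with 4 higher (7.84%, against 1.18% of all genes) and none lower at an unadjusted p under 0.05. Major histocompatibility genes were higher in 17 of 29, with 2 (6.90%) higher at that level, and interferon-response genes in 11 of 16, with 1 (6.25%). Glutamate receptor genes were lower in 13 of 21 with a median of -0.06, and none had an unadjusted p under 0.05. Genes with an unadjusted p under 0.05 made up 2.50% of the 1563 tested on chromosome 11, which holds the congenic segment, against 2.42% of all genes.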
